A study of Gallus gallus with 6 samples.

Results

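The enzymes that oxidise and conjugate foreign and internal lipophilic compounds were examined in the livers of 6 male dwarf Jingxing-Huang (JXH) chickens at 36 weeks of age. Their genes were taken as every row of the FPKM table whose NCBI Gene ID has, in the chicken RefSeq gene table, a symbol that starts with CYP and a digit, UGT1, UGT2, GSTA, GSTK, GSTM, GSTO, GSTT, MGST or FMO. CYP7A1, CYP7B1, CYP8B1, CYP27A1 and CYP51A1, which belong to bile acid and cholesterol synthesis, were left out. The rule found 59 of the 20498 genes in the table. FPKM are fragments counted per gene, scaled to the length of the transcript and the size of the library. Of the 59 genes, 39 averaged 1 FPKM or more over the 6 birds and were tested, among 10886 genes tested in all. FMOD met the rule by its letters alone: it encodes fibromodulin, a proteoglycan of the extracellular matrix, so 58 genes name an enzyme of these families, 38 of them tested.

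The 3 birds with fatty liver were offspring of the paternal inheritance group, in which cocks with fatty liver brought on by a high-fat diet were bred with hens without it, and both had been put on that diet. The 3 birds with non-fatty liver were offspring of the control group, whose parents were on the basal diet and free of fatty liver. All 6 offspring were raised on the basal diet, came from the same closed breed, and gave 1 liver library each. All fatty livers were of the one parentage and all non-fatty livers of the other, so parentage and phenotype cannot be told apart. In such bulk samples fewer cells of a type and less RNA per cell cannot be told apart either.

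Cytochromes P450 are haem proteins, most of them bound to the endoplasmic reticulum, that insert an oxygen atom into their substrates with electrons from POR and cytochrome b5. FMOs oxidise nitrogen and sulphur atoms with a flavin instead of haem. UGTs then attach glucuronic acid, and the glutathione transferases attach glutathione, which makes the products easier to excrete in bile or urine. The liver is the main organ of this work in birds as in mammals. The symbols are those of RefSeq, and a chicken gene that shares a symbol with a mammalian gene need not be its direct counterpart.

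Library totals, recovered from the steps between FPKM values, lay between 9628492 and 10073155 fragments in fatty liver and between 8860634 and 10403637 in control. Hepatocyte markers were abundant in every library (summed FPKM of 8 genes 119223 to 129101 in fatty liver, 115204 to 143594 in control, 0 called), with albumin between 62319 and 74473 FPKM in fatty liver and between 90339 and 107416 FPKM in control. Of the 8 genes, 3 had a positive and 5 a negative log2 fold change, with a median of -0.15, or -0.32 after rescaling. As deposited, fatty liver was separate and higher in 1 and lower in 1, beside 18.3% and 4.78% of all tested genes. After rescaling it was separate and higher in 1 and lower in 2, beside 10.4% and 11.1%. The kidney markers, and the 1 skeletal muscle marker matched of 3 listed, were at or near 0. The adrenal markers STAR and CYP11A1 were under 1 FPKM in all 6 livers. The adrenal marker HSD3B1 was between 0.868 and 1.52 FPKM in fatty liver and between 0.684 and 1.22 FPKM in control. Of the marker lists of other cell types, 2 genes passed the test, 1 of the 4 tested bile duct markers and 1 of the 2 tested adipocyte markers. Over all tested genes 1.14% were called. SOX9 of bile duct cells had 6.28 to 11.9 FPKM in fatty liver and 1.72 to 3.03 in control. PLIN1, a lipid droplet protein on the adipocyte list, had 31.7 to 37.9 FPKM in fatty liver and 2.98 to 7.10 in control. The adipocyte hormone ADIPOQ was between 0.834 and 1.30 FPKM in fatty liver and between 0.701 and 0.970 FPKM in control. The 5 bile duct markers summed to between 42.4 and 75.3 FPKM in fatty liver and between 47.6 and 101 FPKM in control. The 3 adipocyte markers, PLIN1, ADIPOQ and CIDEC, summed to between 99.6 and 205 FPKM in fatty liver and between 46.7 and 101 FPKM in control. Most of that sum was CIDEC in every library. Of the markers of T and B cells, macrophages, stellate cells, endothelium, erythrocytes and adrenal gland, 0 were called by limma, with 1 at an unadjusted p under 0.05 (CD3D, log2 fold change -0.93). All 5 matched T and B cell markers had a negative log2 fold change, where 67.2% of all tested genes had a positive one. Their median was -0.53, or -0.65 after rescaling, when 47.8% of all tested genes were above 0. As deposited the groups overlapped in all 5. After rescaling CD3D and CD4 were separate and lower in fatty liver, beside 11.1% of all tested genes. The 5 markers summed to between 52.5 and 172 FPKM in fatty liver and between 84.7 and 160 FPKM in control. The part of other cell types in the results given here was not tested. Over all tested genes the median log2 fold change, fatty liver against control on the scale of log2(FPKM + 1), was 0.12, and it was -0.01 after the libraries were rescaled without the 50 most abundant genes. Log2 fold changes are therefore also given relative to this median, or after that rescaling.

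The question was whether the detoxification enzymes of birds with fatty liver from the paternal inheritance group differed from those of control birds. Of the 39 tested genes, 1 was called by limma at an adjusted p under 0.05, MGST3, which rose in fatty liver, and 0 were called lower. This was 2.56% of the genes, where 1.14% of all tested genes were called, 0.845% as higher and 0.294% as lower. Of the calls among all genes 74.2% were higher in fatty liver as deposited and 52.4% after rescaling. At an unadjusted p under 0.05 there were 15 of the 39, 13 higher and 2 lower. Of the 10886 tested genes 16.3% were at that p, 1371 higher and 402 lower. The 3 fatty livers lay above the 3 control livers in 11 of the 39 genes and below them in 0, beside 18.3% and 4.78% of all tested genes. Separate groups were thus found for 28.2% of these genes and for 23.0% of all tested genes, and the share was near the background. With 3 birds against 3, an exact permutation test of a single gene cannot go below p = 0.1.

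The median log2 fold change of the 39 genes was 0.40, or 0.28 more than that of all tested genes. The median log2 level of these genes had an SD of 0.32 between birds of the same group. That SD is of single birds and is not relative to the median of all genes. It therefore does not measure the error of the excess. In all, 30 genes had a positive value, 76.9% beside 67.2% of all tested genes. Relative to the median of all tested genes, 26 of the 39 lay above it and 13 below. After rescaling the median of the 39 was 0.23, with 26 of the 39 genes above 0, beside 47.8% of all tested genes. The groups then did not overlap in 6 genes with higher and 2 with lower values in fatty liver, beside 10.4% and 11.1% of all tested genes, or 21.4% in both directions. After rescaling 0 of the 39 were called by limma, beside 0.772% of all tested genes, or 0.404% as higher and 0.367% as lower, and 10 had an unadjusted p under 0.05, beside 15.8%. Without FMOD the median as deposited was again 0.40. By family, the median was 0.69 for the 2 tested MGST genes, 0.46 for the 2 UGT genes, 0.40 for the 15 tested genes of families CYP1 to CYP3, 0.32 for the 5 other P450 genes, 0.31 for the 4 CYP4 genes and 0.18 for the 8 GST genes. No test was made of these medians.

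**Figure D1:**
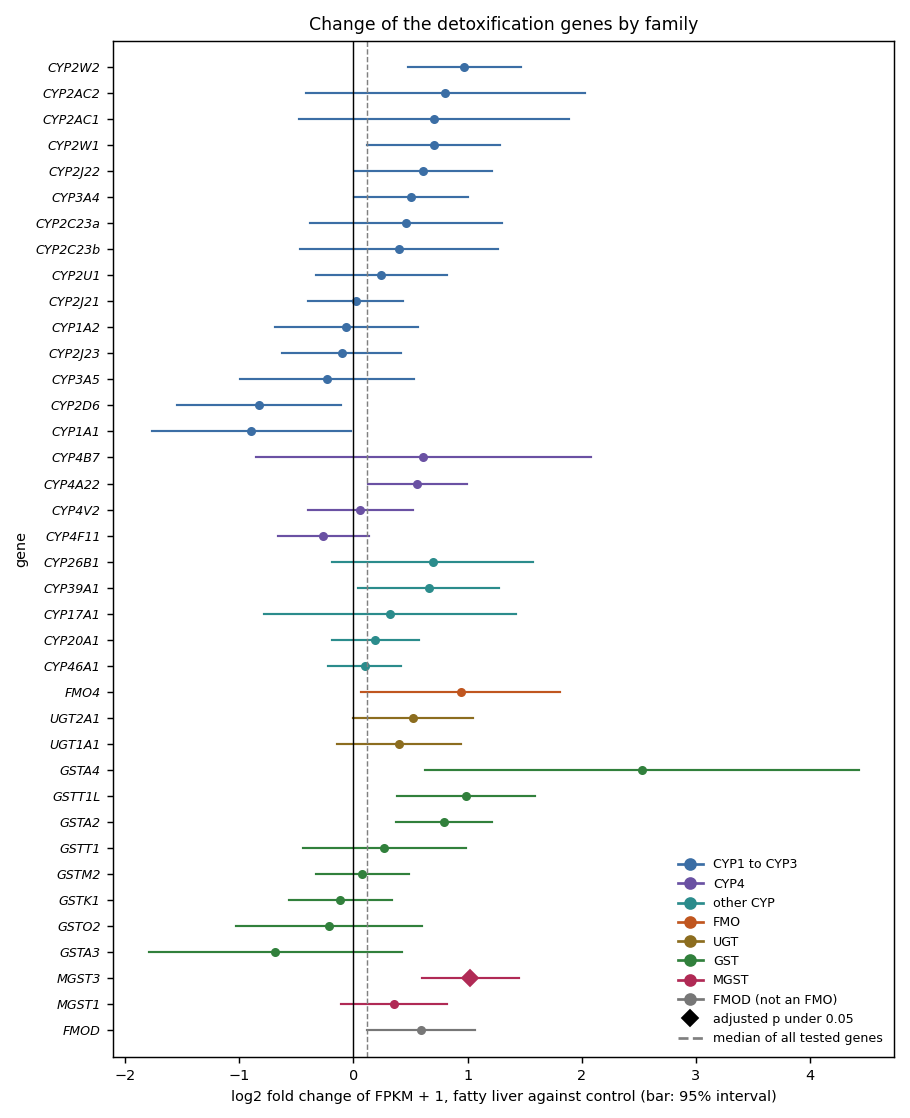
Log2 fold change of FPKM + 1, fatty liver against control, for 38 of the 39 tested genes, grouped by family from top to bottom, with the 95% interval of limma as a bar. MGST3 alone has an adjusted p under 0.05 (diamond), most points lie right of the dashed line at 0.12, the median of all tested genes, and the widest bar is that of GSTA4.

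The oxidising enzymes of families CYP1 to CYP3 metabolise drugs, plant compounds, steroids and polyunsaturated fatty acids. The most abundant gene of all the families was CYP3A5, known in chicken also as CYP3A37, which ranked 58 among all genes by mean FPKM. CYP3A enzymes are the main drug and steroid hydroxylases of the mammalian liver. CYP3A5 had 1467, 1026 and 709 FPKM in the fatty livers, against 1060.1, 905 and 1805 FPKM in the control livers. The highest and the lowest of the 6 values were thus a control bird and a fatty liver, and the groups overlapped (log2 fold change -0.23, standard error 0.33, adjusted p = 0.78). The sign turned to positive, at 0.06, without control replicate 3 and at 0.03 without fatty liver replicate 3. Its neighbour CYP3A4 was listed at 3.30, 5.42 and 3.31 FPKM in fatty liver and at 2.06, 3.13 and 2.30 FPKM in control, a far lower level than that of CYP3A5 on the same per-length scale (log2 fold change 0.50, standard error 0.22, adjusted p = 0.30). The groups of CYP3A4 were separate as deposited and overlapped after rescaling.

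CYP2C23a and CYP2C23b are the genes long known in chicken as CYP2H1 and CYP2H2, the P450s that phenobarbital induces in chicken liver. CYP2C23a had 359, 622 and 665 FPKM in fatty liver, against 416, 234 and 585 FPKM in control. CYP2C23b had 199, 412 and 390.2 FPKM in fatty liver, against 252, 152 and 364 FPKM in control. The pair kept nearly the same proportions in every bird, with CYP2C23a between 60.2% and 64.4% of the sum in fatty liver and between 60.6% and 62.3% in control. The log2 fold changes were 0.46 and 0.40, with adjusted p of 0.58 and 0.65. These genes lie next to each other in the genome, and how the counting divided fragments between such similar copies is not given in the sources used here, so their separate levels are uncertain.

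CYP2W2 and CYP2W1, neighbours in the genome, belong to a subfamily whose human member is known best from colon tumours. CYP2W2 had 139.7, 133 and 122 FPKM in fatty liver, against 81.8, 73.6 and 49.0 FPKM in control. All 3 fatty livers exceeded all 3 controls by a clear gap, and this was the P450 with the smallest p (log2 fold change 0.97, standard error 0.21, adjusted p = 0.078). After rescaling the log2 fold change was 0.81 with an adjusted p of 0.15, and over the 15 alternatives the adjusted p lay between 0.065 and 0.22. CYP2W1, at a far lower level, had 6.42, 3.43 and 3.96 FPKM in fatty liver, against 2.72, 2.95 and 1.58 FPKM in control (log2 fold change 0.70, standard error 0.25, adjusted p = 0.22). Both genes kept separate groups after rescaling.

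The lower side was led by CYP1A1 and CYP2D6. CYP1A1 belongs to the subfamily that the aryl hydrocarbon receptor induces, and it had 5.59, 2.98 and 3.19 FPKM in fatty liver, against 11.8, 10.4 and 3.82 FPKM in control. Control replicate 3 lay within the fatty livers, so the groups overlapped (log2 fold change -0.89, standard error 0.38, adjusted p = 0.30). CYP1A2, its neighbour, was more abundant and differed less on the log2 scale, with 58.5, 36.9 and 38.9 FPKM in fatty liver, against 65.6, 40.7 and 35.7 FPKM in control (log2 fold change -0.06, 95% interval -0.69 to 0.57). CYP1A1 thus made up between 7.5% and 8.7% of the pair in fatty liver and between 9.7% and 20.3% in control. CYP2D6, of a drug-metabolising subfamily, had 119.8, 169.6 and 154 FPKM in fatty liver, against 157, 334 and 336 FPKM in control. Only control replicate 1 lay among the fatty livers (log2 fold change -0.83, standard error 0.31, adjusted p = 0.24), and after rescaling all 3 fatty livers lay below the controls (log2 fold change -0.99, adjusted p = 0.17).

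CYP2AC1 and CYP2AC2, also neighbours, varied more between control birds than between the groups. CYP2AC1 had 459, 312 and 481 FPKM in fatty liver, against 172, 144 and 633 FPKM in control. CYP2AC2 had 21.4, 9.27 and 13.6 FPKM in fatty liver, against 5.89, 3.50 and 19.3 FPKM in control. Control replicate 3 was 4.40 and 5.51 times as high as the lowest control, while the other controls lay below all fatty livers. The log2 fold changes were 0.71 and 0.81 with adjusted p of 0.54 and 0.49. They were 1.37 and 1.43 without control replicate 3 (adjusted p = 0.063 and 0.14), and 0.31 and 0.34 without control replicate 2 (adjusted p = 0.79 and 0.75). The CYP2J genes, whose mammalian relatives epoxidise arachidonic acid, are neighbours. CYP2J22 had 11.0, 8.67 and 7.84 FPKM in fatty liver, against 5.63, 3.66 and 8.26 FPKM in control (log2 fold change 0.61, adjusted p = 0.30). CYP2J21 differed by 0.02 (95% interval -0.39 to 0.44) and CYP2J23 by -0.10 (95% interval -0.62 to 0.42) on the log2 scale. CYP2U1, a fatty acid hydroxylase, had a log2 fold change of 0.24 (95% interval -0.33 to 0.82).

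The CYP4 enzymes hydroxylate fatty acids at or near the far end of the chain. All 4 genes were tested. CYP4A22 had 118, 106 and 109.8 FPKM in fatty liver, against 62.7, 71.6 and 94.4 FPKM in control, with no overlap between the groups (log2 fold change 0.56, standard error 0.19, adjusted p = 0.20). Its groups overlapped after rescaling. CYP4B7, its neighbour, had 151, 58.4 and 83.7 FPKM in fatty liver, against 34.2, 33.4 and 177 FPKM in control, so the highest value again was that of control replicate 3 (log2 fold change 0.61, adjusted p = 0.69). The log2 fold change was 1.39 without that bird and 0.21 without control replicate 2. CYP4F11 had 132, 111 and 137 FPKM in fatty liver, against 169.9, 132 and 156 FPKM in control. Fatty liver replicates 1 and 3 lay above the lowest control as deposited, and after rescaling the fatty livers lay below the controls (log2 fold change -0.26 as deposited and -0.43 after rescaling, adjusted p = 0.49 and 0.31). CYP4V2 had a log2 fold change of 0.06 (95% interval -0.40 to 0.52). The CYP4 genes thus had differences of both signs.

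Among the P450s of steroids, sterols and retinoids, CYP39A1, a hydroxylase of oxysterols, had 103, 87.3 and 52.6 FPKM in fatty liver, against 54.0, 39.5 and 55.2 FPKM in control. Fatty liver replicate 3 lay within the controls (log2 fold change 0.66, standard error 0.27, adjusted p = 0.28). CYP46A1, the cholesterol hydroxylase known best from brain, had the smallest spread between birds of the 39 genes in either group, with 21.3, 22.3 and 21.1 FPKM in fatty liver, against 20.5, 19.1 and 20.6 FPKM in control. Its groups did not overlap, but the log2 fold change of 0.10 (95% interval -0.23 to 0.42) was below the median of all tested genes, and it was -0.06 after rescaling. CYP26B1, which breaks down retinoic acid, had 4.75, 1.02 and 4.24 FPKM in fatty liver, against 1.71, 1.05 and 1.58 FPKM in control, so that 2 fatty livers stood above and 1 below all controls. CYP17A1, of steroid hormone synthesis, was split alike, with 2.50, 0.126 and 3.20 FPKM in fatty liver, against 1.23, 0.481 and 1.57 FPKM in control. In both genes fatty liver replicate 2 was the lowest of the 6 birds. For CYP17A1 that value rested on 2 fragments, against 7 in control replicate 2. For CYP26B1 it was close to control replicate 2, with 39 and 37 fragments. The orphan CYP20A1 had a log2 fold change of 0.19 (95% interval -0.19 to 0.57).

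FMO4, a flavin-containing monooxygenase, had 21.2, 13.6 and 11.9 FPKM in fatty liver, against 7.55, 13.1 and 3.91 FPKM in control, with an overlap at control replicate 2 (log2 fold change 0.94, standard error 0.38, adjusted p = 0.27). FMOD, which is no FMO, had 2.42, 1.87 and 2.47 FPKM in fatty liver, against 0.921, 0.908 and 1.70 FPKM in control (log2 fold change 0.59, adjusted p = 0.21).

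**Figure D2:**
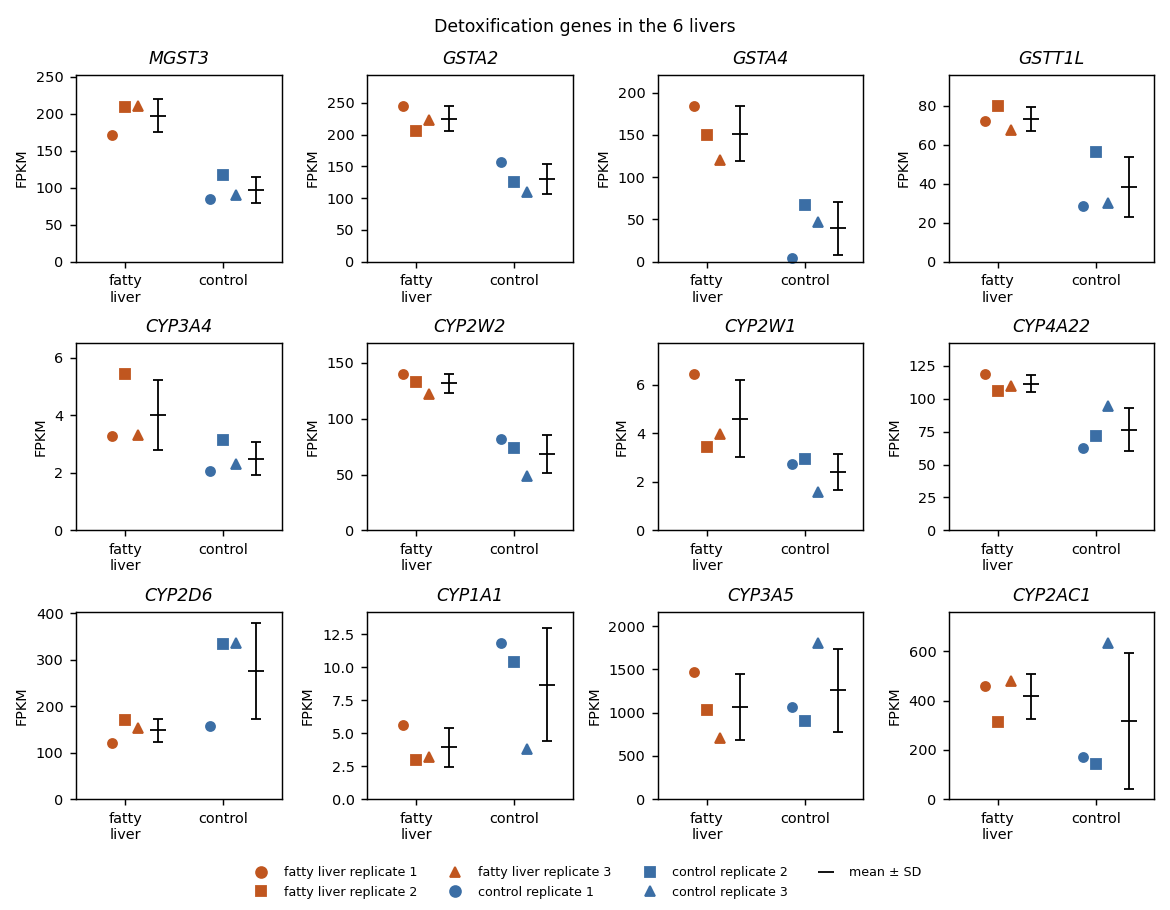
FPKM of 12 genes in each bird, fatty liver at the left and control at the right of each panel, with the mean and SD of each group (n = 3 birds) beside the points and every vertical axis from 0. On the deposited scale shown, the groups are separate in the upper 2 rows, and overlap in CYP2D6, CYP1A1, CYP3A5 and CYP2AC1 in the lower row. After rescaling, those of CYP3A4 and CYP4A22 overlap and those of CYP2D6 do not.

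Of the UGT genes, UGT1A1 is in mammals the enzyme that conjugates bilirubin. UGT1A1 had 242, 227 and 186 FPKM in fatty liver, against 213, 174 and 120.0 FPKM in control (log2 fold change 0.40, standard error 0.23, adjusted p = 0.44). UGT2A1 had 33.6, 27.2 and 31.1 FPKM in fatty liver, against 29.0, 20.1 and 15.7 FPKM in control (log2 fold change 0.52, standard error 0.23, adjusted p = 0.31). In both, the means were higher in fatty liver and control replicate 1 lay within the fatty livers.

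The gene called in these families was MGST3, one of the membrane-bound glutathione transferases of the endoplasmic reticulum, which in mammals also reduces lipid hydroperoxides. MGST3 had 172, 209 and 211 FPKM in fatty liver, against 84.5, 117 and 89.8 FPKM in control. The lowest fatty liver was well above the highest control, and the means were 197 ± 22.0 and 97.1 ± 17.4 FPKM (SD, n = 3 birds each), a 2.03-fold difference. The log2 fold change was 1.02 with a standard error of 0.18 and a limma adjusted p of 0.048, and it was 0.90 relative to the median of all tested genes. The call was held narrowly. After rescaling the log2 fold change was 0.86 with an adjusted p of 0.058, MGST3 passed in 3 of the 15 alternatives, and its adjusted p lay between 0.060 and 0.17 when any 1 library was left out. MGST1, its relative, lay between 215 and 277 FPKM in fatty liver and between 161 and 242 FPKM in control, so the groups overlapped (log2 fold change 0.35, standard error 0.20, adjusted p = 0.43). MGST3 accordingly held between 38.6% and 49.3% of the summed FPKM of the MGST genes in fatty liver and between 29.7% and 35.8% in control. MGST2 was under the filter, with 0, 0 and 8 fragments in fatty liver and 2, 4 and 1 in control.

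The soluble glutathione transferases had differences of both signs. GSTA enzymes of the alpha class handle products of lipid peroxidation in mammals, above all GSTA4. GSTA4 had 184, 149.8 and 121 FPKM in fatty liver, against 4.48, 66.8 and 46.7 FPKM in control. Its groups were far apart, with means that differed 3.86-fold, the largest ratio of the 39 genes. The control birds however ranged over 14.9-fold, and the log2 fold change of 2.53 had a standard error of 0.82 (adjusted p = 0.19). Without control replicate 1, the bird with 4.48 FPKM, it was 1.40. GSTA2 varied less, with 245, 206 and 223 FPKM in fatty liver, against 156, 125 and 109.8 FPKM in control (log2 fold change 0.79, standard error 0.18, adjusted p = 0.086). GSTA3, which lies between them, had 18.0, 22.3 and 27.1 FPKM in fatty liver, against 34.7, 80.2 and 16.9 FPKM in control (log2 fold change -0.69, standard error 0.48, adjusted p = 0.52, and -0.12 without control replicate 2). The summed FPKM of the alpha class was between 370.9 and 448 in fatty liver and between 173 and 272 in control, with no overlap, and GSTA4 held 32.5% to 41.2% of it in fatty liver and 2.3% to 26.9% in control. How the counting divided fragments among these similar genes is not given in the sources used here, so their shares are uncertain.

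**Figure D3:**
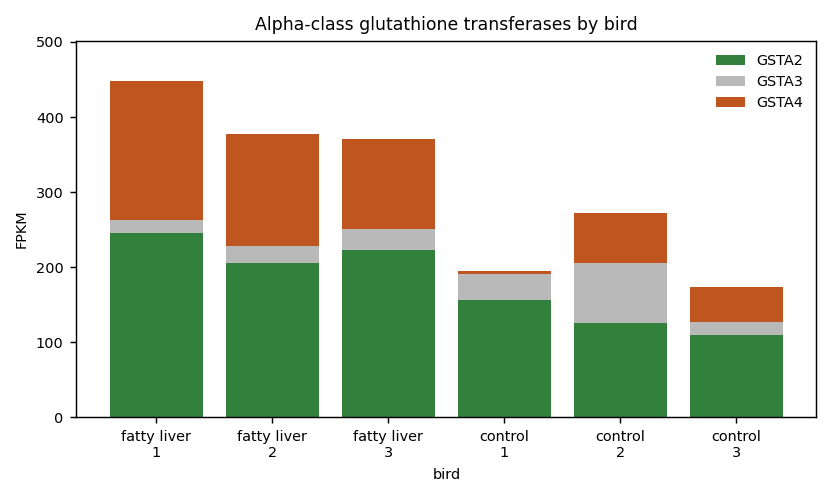
FPKM of GSTA2, GSTA3 and GSTA4 stacked for each bird, 3 fatty livers at the left and 3 controls at the right, with the vertical axis from 0. The whole bar is taller in each fatty liver, and the GSTA4 segment is nearly absent in control 1, at 4.48 FPKM.

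Of the theta class, GSTT1L had 72.2, 79.9 and 67.4 FPKM in fatty liver, against 28.5, 56.1 and 30.1 FPKM in control. The groups were separate (log2 fold change 0.98, standard error 0.26, adjusted p = 0.12). After rescaling the log2 fold change was 0.82 with an adjusted p of 0.16. Over the 15 alternatives the adjusted p lay between 0.041 and 0.30. Only the fit without control replicate 2, the highest control, gave a call, at 0.041. With any other library left out the adjusted p lay between 0.20 and 0.30. Its neighbour, GSTT1, had 117, 105 and 106 FPKM in fatty liver, against 117, 120.0 and 52.2 FPKM in control (log2 fold change 0.27, adjusted p = 0.72). The remaining soluble enzymes overlapped between the groups. GSTM2, of the mu class, had 258, 208 and 219 FPKM in fatty liver, against 224, 244 and 182 FPKM in control (log2 fold change 0.08, 95% interval -0.33 to 0.49), a difference that was -0.09 after rescaling. GSTK1, the kappa enzyme of mitochondria and peroxisomes, had a log2 fold change of -0.11 (95% interval -0.57 to 0.34). GSTO2, of the omega class, had 51.3, 29.4 and 31.5 FPKM in fatty liver, against 30.4, 72.5 and 34.0 FPKM in control (log2 fold change -0.22, 95% interval -1.03 to 0.60).

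The summed FPKM of the P450, UGT and glutathione transferase families were compared between birds. The MGST sum was 445, 486 and 427 FPKM in fatty liver, against 285, 360.2 and 251 FPKM in control. The MGST sums did not overlap between the groups. The other P450 genes, outside families CYP1 to CYP4, summed to 144, 120 and 93.4 FPKM in fatty liver. In control they summed to 86.0, 71.2 and 88.0 FPKM, so these sums did not overlap either. The sum of families CYP1 to CYP3 was 2920, 2805 and 2650 FPKM in fatty liver, against 2292, 1983 and 3893 FPKM in control, so the means of 2791 ± 135 and 2723 ± 1025 FPKM (SD, n = 3 birds each) were close while the control birds lay far apart. The GST sum was 1044, 927 and 914 FPKM in fatty liver, against 717, 916 and 574 FPKM in control. All 58 enzyme genes together gave 6461, 5770 and 5324 FPKM in fatty liver, against 4488, 4341 and 5748 FPKM in control, or between 0.821% and 1.02% of the summed FPKM of a fatty liver library and between 0.712% and 0.945% of a control library.

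Control replicate 3 had the highest sum of families CYP1 to CYP3 and of CYP4 among the 6 birds, and the lowest sum of UGT, GST and MGST. In the GST and MGST sums it was nearer to control replicate 1 than that bird was to control replicate 2. Among the 14 tested FMO, UGT, GST and MGST genes it was the lowest control in 10 and the highest in 0. Among the 15 tested genes of families CYP1 to CYP3 it was the highest control in 7 and the lowest in 6, and its values of the abundant CYP3A5 and CYP2AC1 were the highest of the 6 birds. In the other 9 tested P450 genes it was the highest control in 6 and the lowest in 0. Over all tested genes it was the highest control in 31.8% and the lowest in 32.4%. The choice of this bird was made after its values were seen, and no test was made. The median ratio of the highest to the lowest bird of a group over the 39 genes was 1.42 in fatty liver and 1.88 in control, beside 1.36 and 1.48 for all tested genes. The ratio passed 3-fold in 2 of the 39 genes in fatty liver and in 8 in control, beside 5.10% and 6.09% of the tested genes with no library at 0.

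**Figure D4:**
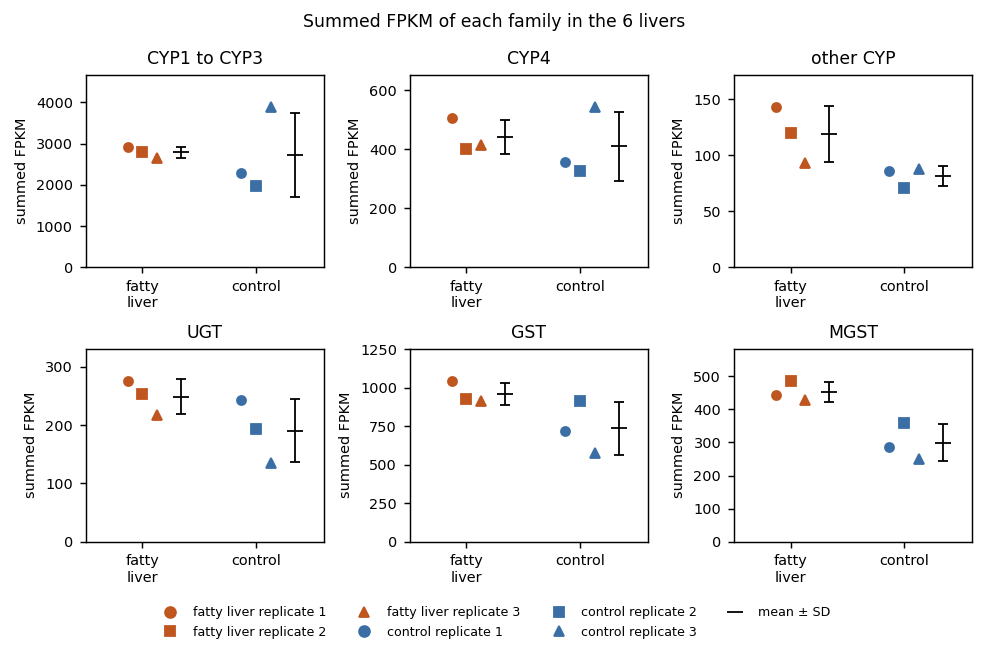
Summed FPKM of 6 families in each bird, fatty liver at the left and control at the right of each panel, with the mean and SD of each group (n = 3 birds) and every vertical axis from 0. The triangle of control replicate 3 is the highest point in CYP1 to CYP3 and CYP4 and the lowest in UGT, GST and MGST.

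Of the 20 genes under the filter, 4 were at 0 in all 6 libraries, namely CYP19A1, CYP24A1, CYP2AB5 and CYP2J19. CYP19A1 makes estrogen, CYP24A1 inactivates vitamin D and CYP2J19 makes the red ketocarotenoids of birds. A further 6 had between 0 and 3 fragments in every library, where 3 fragments were taken as the floor, among them CYP11A1, CYP26A1 and CYP26C1. Over the floor in all 6 libraries were 3 genes, CYP2R1, CYP21A1 and CYP1B1. The other 7 passed the floor in some libraries. CYP2R1, a vitamin D hydroxylase of liver, had 21, 14 and 12 fragments in fatty liver, against 23, 35 and 26 in control, with each fatty liver below each control. CYP21A1, of corticosteroid synthesis, had 16, 11 and 14 fragments in fatty liver, against 6, 7 and 9 in control, with each fatty liver above each control. In a fit without the filter their adjusted p were 0.37 and 0.29. The genes just outside the filter were CYP2R1, CYP21A1 and MGST2, with means of 0.821, 0.746 and 0.633 FPKM, and those just inside were CYP17A1, FMOD and CYP26B1.

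The genes that serve these enzymes were taken from 5 lists, of which 73 genes were tested. Of them 3 were called higher and 1 lower, beside 0.845% and 0.294% of all tested genes, and their median log2 fold change was 0.34, or 0.22 more than that of all tested genes. Of the 9 tested genes of electron and haem supply, 1 rose. ALAS1, the rate-limiting enzyme of haem synthesis, had 20.6, 25.4 and 36.7 FPKM in fatty liver, against 3.98, 5.37 and 10.7 FPKM in control. It passed as deposited (log2 fold change 1.95, standard error 0.34, adjusted p = 0.041) but not after rescaling (adjusted p = 0.065). ALAS1 is the gene that drugs which induce P450s also induce in chicken liver. CYB5A, cytochrome b5, had 800.3, 756 and 755 FPKM in fatty liver, against 461, 447 and 355 FPKM in control, just outside the threshold (log2 fold change 0.88, standard error 0.16, adjusted p = 0.052). POR, the reductase that feeds electrons to the P450s, had 103, 70.3 and 82.3 FPKM in fatty liver, against 45.5, 64.1 and 63.5 FPKM in control (log2 fold change 0.55, adjusted p = 0.24), again with separate groups as deposited. Over the 9 tested genes of this list, fatty liver was separate and higher in 4 as deposited and in 2 after rescaling, beside 18.3% and 10.4% of all tested genes. HMOX1, which breaks haem down, had 118, 98.3 and 105 FPKM in fatty liver, against 147, 138 and 122 FPKM in control, and was the only gene of this list whose fatty livers all lay below the controls (log2 fold change -0.33, adjusted p = 0.35). The other 5 genes of this list, CYB5B, CYB5R1, CYB5R2, FDX1 and FDXR, had log2 fold changes between -0.12 and 0.45.

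Of the 7 tested genes of glucuronate supply, 1 was called higher as deposited and 0 were called after rescaling. All 7 had a positive log2 fold change as deposited and after rescaling, beside 67.2% and 47.8% of all tested genes. Fatty liver was separate and higher in 4 as deposited and in 2 after rescaling, beside 18.3% and 10.4% of all tested genes. UGDH makes UDP-glucuronic acid, the cosubstrate of the UGTs, and had 72.0, 102 and 103 FPKM in fatty liver, against 39.3, 43.7 and 40.2 FPKM in control. Its lowest fatty liver was well above its highest control (log2 fold change 1.13, standard error 0.19), with an adjusted p of 0.037 as deposited and 0.055 after rescaling. Of the 18 tested genes of glutathione supply and use, 0 were called and 1 had an unadjusted p under 0.05, LANCL1 (log2 fold change 0.43, adjusted p = 0.21). Among the genes of glutathione synthesis, the log2 fold changes were -0.03 for GCLC, 0.08 for GCLM and 0.12 for GSS. Of the 22 tested genes of other oxidising, reducing and hydrolysing enzymes, ALDH1A1, an aldehyde and retinal dehydrogenase, rose, with 304, 310.3 and 324 FPKM in fatty liver, against 182, 149 and 146 FPKM in control (log2 fold change 0.98, standard error 0.16, adjusted p = 0.036, and 0.083 after rescaling). XDH, the xanthine dehydrogenase that makes uric acid, fell, with 31.0, 24.9 and 12.4 FPKM in fatty liver, against 112, 107 and 177 FPKM in control (log2 fold change -2.54, standard error 0.34, adjusted p = 0.020, and 0.032 after rescaling). NQO1, a quinone reductase, and the epoxide hydrolases EPHX1 and EPHX2 had separate groups with higher values in fatty liver, at adjusted p of 0.080, 0.12 and 0.074. Over the 22 tested genes of this list, fatty liver was separate and higher in 9 and lower in 1 as deposited, beside 18.3% and 4.78% of all tested genes. After rescaling it was separate and higher in 7 and lower in 2, beside 10.4% and 11.1%.

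Of the 17 tested regulators, 0 were called, with 5 at an unadjusted p under 0.05, all with separate groups and higher values in fatty liver, beside 16.3% at that p and 18.3% separate and higher among all tested genes. After rescaling 3 were separate and higher and 1, PPARA, was separate and lower, beside 10.4% and 11.1% of all tested genes. AHR1A, the aryl hydrocarbon receptor of higher level here, had 17.7, 25.3 and 24.0 FPKM in fatty liver, against 19.7, 27.5 and 21.4 FPKM in control (log2 fold change -0.04, adjusted p = 0.95). AHR1B had 2.91, 5.59 and 4.32 FPKM in fatty liver, against 2.20, 1.36 and 1.17 FPKM in control (log2 fold change 1.02, adjusted p = 0.094). AHR2 averaged 13.7 ± 4.66 FPKM in fatty liver and 5.43 ± 3.45 FPKM in control (SD, n = 3 birds each), and its groups were separate (log2 fold change 1.34, adjusted p = 0.20). These values stand beside those of the receptor's target CYP1A1, whose mean was lower in fatty liver. NR1I3, the xenobiotic receptor through which phenobarbital acts in chicken, had 40.6, 25.4 and 19.8 FPKM in fatty liver, against 26.9, 44.5 and 22.6 FPKM in control (log2 fold change -0.13, adjusted p = 0.88). NFE2L2, the regulator of GST and NQO1 genes, had a log2 fold change of 0.34 (adjusted p = 0.50). CEBPB and CEBPA, liver transcription factors, had log2 fold changes of 1.01 and 0.89 (adjusted p = 0.13 and 0.18). RXRA, the partner of many nuclear receptors, had a log2 fold change of 0.45 (adjusted p = 0.22). HNF4A, a hepatocyte factor also on the hepatocyte list, had 15.2, 36.4 and 20.7 FPKM in fatty liver, against 15.6, 14.7 and 4.43 FPKM in control, with overlap (log2 fold change 1.07, adjusted p = 0.31). Of the others, ARNT, ARNT2, RXRG, PPARA, NR1H4, NR5A2 and ESR1 had log2 fold changes between -0.18 and 0.36.

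**Figure D5:**
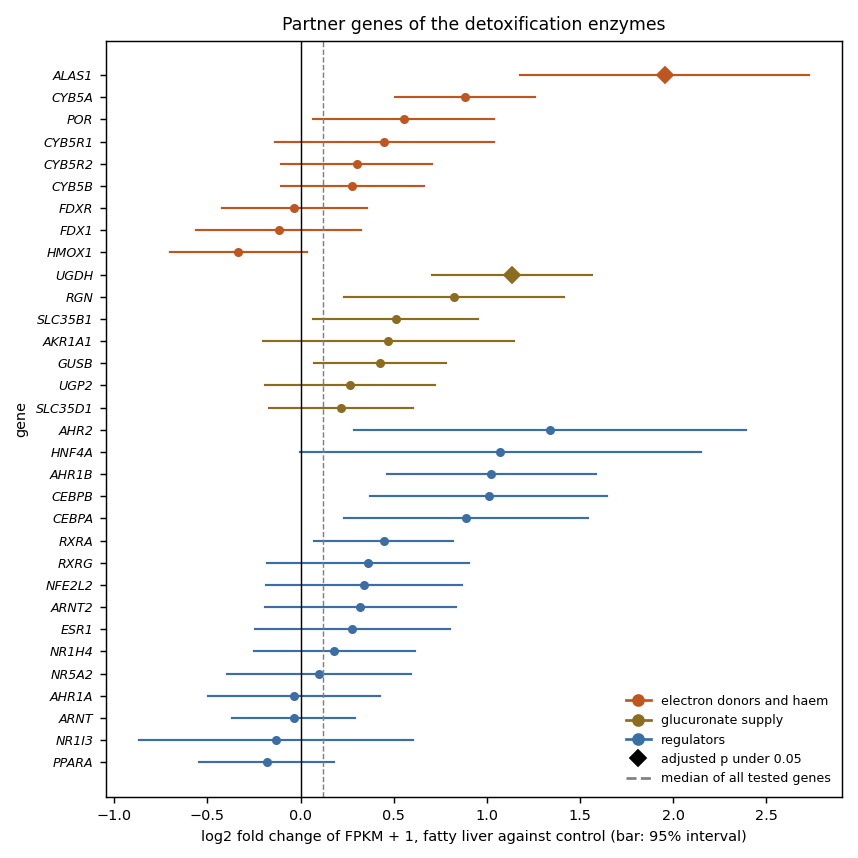
Log2 fold change of FPKM + 1, fatty liver against control, for tested genes of electron and haem supply, glucuronate supply and regulation, with the 95% interval of limma as a bar. ALAS1 and UGDH have an adjusted p under 0.05 (diamonds), all 7 glucuronate genes lie right of the dashed line at 0.12, and NR1I3 and PPARA lie lowest among the regulators.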

How the data were processed

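Liver mRNA of 3 birds with fatty liver and 3 control birds was sequenced, with 1 library per bird. The authors filtered reads with Sickle and SeqPrep, mapped them to Gallus_gallus-5.0 and deposited FPKM per gene. The aligner and the counting tool are not given in the sources used here. Symbols were looked up by NCBI Gene ID in RefSeq's table for bGalGal1.mat.broiler.GRCg7b, and 16332 IDs had one. That assembly served for names and neighbours, and no coordinates are given.

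Genes that averaged 1 FPKM or more were fitted with limma 3.58.1 (R 4.3.3) on log2(FPKM + 1), with a mean-variance trend, no covariate and Benjamini-Hochberg adjustment over 10886 genes at 0.05, two-sided. The scale understates the change of low genes. P-values set the difference between the groups against the spread between these birds. In limma that spread is drawn towards the trend over all tested genes. In simulated data with 200 changed genes, 59 of 63 genes with a log2 change of 1 were called, and 11 unchanged genes. Each simulated gene was given the typical spread at its expression level. The simulation therefore does not show how often real genes of wider spread would be called, and an uncalled gene may still have changed.

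Whole fragments were worked out for 100% of the expressed genes, and simulation returned 98.9% of 3908 genes exactly.

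Genes named are called genes, those with separate groups, the 10 most abundant, the 5 largest changes each way, those nearest the filter, called partner genes and all tested regulators and electron donors, and others only complete a family or list. Some genes that meet this rule are counted but not reported here. The members and lists were chosen with earlier results of these data known. The partner and marker lists were matched by symbol or synonym (80 of 96 partner genes). Matched markers were 1 of 3 for skeletal muscle, 2 of 4 for macrophages, 5 of 6 for T and B cells and 3 of 4 for erythrocytes. The other marker lists were matched in full.

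Alternatives tried included adding 0.1 before the logarithm, no filter, 3 scalings, limma without a trend or with robust eBayes, the replicate block, each library left out, and, added after seeing the data, voom on the fragments.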

Additional observations from a re-analysis of the deposited data

How the results depend on the processing

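The number of genes called in these families was 1 as deposited. It was 0 without the filter on low values, with a common median in all libraries, under quantile normalization, after rescaling without the 50 most abundant genes, without a mean-variance trend and with voom, and 2 with the replicate block (MGST3 among them), and all calls were of higher values. Over the fits that left out 1 library it was between 0 and 1, the 1 being GSTT1L without control replicate 2. Genes called among all tested, 124 as deposited, were 30 without the filter, 79 with the same median and between 22 and 119 with 1 library left out (22 without fatty liver replicate 3, 24 without fatty liver replicate 2, 36 without control replicate 2 and 77 without control replicate 1). The share of higher genes among them was 74.2% as deposited and between 48.4% and 54.4% under the 3 scalings and voom. Genes whose groups did not overlap numbered 11 of the 39 as deposited, beside 23.0% of all tested genes. With 1 library left out they numbered 14 to 17, beside 28.5% to 39.1% of all tested genes, since fewer birds were compared. There were 17 without control replicate 3, beside 31.6% of all tested genes, and 15 without control replicate 2, beside 39.1%. What caused the other changes was not tested.

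MGST3 lost its call with adjusted p of 0.096 without the filter, 0.070 with the same median, 0.060 with quantile normalization, 0.058 after rescaling, 0.052 without a trend and 0.057 with voom. The log2 fold change of CYP46A1 turned to -0.043 with the same median, -0.044 with quantile normalization, -0.062 after rescaling and -0.048 with voom. That of GSTM2 turned to -0.069, -0.082, -0.088 and -0.073 under these 4, and lay between -0.040 and 0.17 with 1 library left out. CYP3A5 lay between -0.49 and 0.061, and CYP17A1 between -0.040 and 0.91, with 1 library left out. In all, 333 of 360 refits of the 24 genes that met the criteria for naming kept direction and call. Of these 24, only MGST3 was called as deposited, so for the others keeping the call meant staying uncalled. MGST3 itself passed in 3 of the 15 alternatives. The median of the 39 genes stayed between 0.20 and 0.47, and without the filter, where 55 genes were tested, it was 0.19. With the replicate block 140 genes were called in all. A replicate number names a different animal in each group, and birds with the same number deviated from their group means with correlations of 0.02, 0.04 and 0.05 over genes, so no pairing was assumed.

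With 3 birds a group and 8860634 to 10403637 fragments per library, values of genes such as MGST2 and CYP2AB2 rest on 0 to 8 fragments, and in the fit without the filter their adjusted p were 0.93 and 0.19.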
